A study of Mus musculus with 4 samples.

Results

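Hemoglobin and erythroid genes were examined in reconstituted ovaries (rOvaries) by RNA-seq, for whether their transcripts differed after mTOR inhibition. The 6 genes were taken by symbol, with earlier results of these data known, and all 6 were among the 54021 gene symbols counted. They are the adult alpha globin genes Hba-a1 and Hba-a2, the adult beta globin genes Hbb-bs and Hbb-bt, Alas2 and Slc4a1. An rOvary is a graft placed beneath the capsule of the kidney, where primordial germ cells aggregated with somatic cells of fetal ovaries grow, here from C57BL/6 crossed with actin-GFP mice. All recipients were ovariectomized female C57BL/6 mice of generation 2 lacking the telomerase RNA gene (Terc-/-), aged 2 to 3 months. The treated group, rOvaries 1 and 2, came from recipients given INK128, a kinase inhibitor of mTOR, at 0.75 µM per g in the drinking water, and the control group, rOvaries 1 and 3, from recipients given none. This dose is that of the sample labels, and the study's methods state it differently, as a concentration in the water. The rOvaries were collected 1 month after transplantation, when donor cells, recipient blood and vessels and adjoining kidney could all contribute RNA. The labels do not say whether the 2 libraries of a group came from separate recipients, so the p-values measure only the spread between these libraries, which for the treated group may be technical.

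Hemoglobin is assembled in red cell precursors from alpha and beta globin chains, each of which carries a heme group. Alas2 encodes the erythroid form of the enzyme that starts heme synthesis, whereas Alas1 encodes the form used by most other cells. Slc4a1 encodes band 3, the chloride and bicarbonate exchanger that anchors the skeleton of the red cell membrane, and a shorter form of it is made by acid-secreting intercalated cells of the kidney collecting duct. Mature mouse red cells have no nucleus, and circulating reticulocytes still hold globin mRNA, so blood left in a tissue can bring globin reads into its library. In bulk tissue, fewer cells of a type and less RNA per cell cannot be told apart.

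The adult globin genes lie as near-identical pairs in the alpha cluster on chromosome 11 and the beta cluster on chromosome 7. In GENCODE release M21 on mm10, Hba-a1 spans bases 32283511 to 32284465 and Hba-a2 bases 32296489 to 32297298 of chromosome 11, both on the plus strand. Hbb-bs spans bases 103826534 to 103828096 and Hbb-bt bases 103812524 to 103813996 of chromosome 7, both on the minus strand. Alas2 spans bases 150547375 to 150570638 of chromosome X on the plus strand, and Slc4a1 bases 102348824 to 102366203 of chromosome 11 on the minus strand. The coding sequences of the alpha pair (426 bases) and of the beta pair (441 bases) each differ at 1 base, which is an identity of 99.8%. Of all 100-base stretches of the Hba-a2 transcript, 74.5% are also found in Hba-a1, and 56.5% of those of Hba-a1 in Hba-a2. For Hbb-bs and Hbb-bt the shared parts are 62.6% and 54.8%. The division of reads within a pair is therefore uncertain, because it depends on how reads that match both copies were counted, and the sum over a pair can be too low if such reads were left out.

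The promoters of 4 members are shown because genes expressed together in red cell precursors can be compared there letter by letter. Each is the 250 bases before the RefSeq transcript start on GRCm38.p6, the assembly of mm10, written in the direction of the gene. Capitals mark the letters of the TATA box motif, searched as TATAA, the CCAAT box, the CACC box motif, searched as CACCC, and the site of GATA factors, searched in the form AGATAA and in the form TGATAA. Both strands were searched, so the reverse complement of each motif is capitalised too.
Hba-a1 (chr11:32283422-32283671, plus strand): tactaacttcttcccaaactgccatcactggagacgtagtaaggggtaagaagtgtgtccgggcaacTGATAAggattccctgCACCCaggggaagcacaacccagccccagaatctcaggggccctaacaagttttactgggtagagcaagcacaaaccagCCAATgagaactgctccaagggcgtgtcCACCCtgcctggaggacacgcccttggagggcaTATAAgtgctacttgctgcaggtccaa
Hbb-bs (chr7:103827929-103828178, minus strand): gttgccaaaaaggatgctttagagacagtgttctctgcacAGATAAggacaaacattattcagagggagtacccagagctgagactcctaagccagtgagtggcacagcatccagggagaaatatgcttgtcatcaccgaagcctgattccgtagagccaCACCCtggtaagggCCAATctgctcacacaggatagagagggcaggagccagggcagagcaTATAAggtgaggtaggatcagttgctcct
Hbb-bt (chr7:103813924-103814173, minus strand): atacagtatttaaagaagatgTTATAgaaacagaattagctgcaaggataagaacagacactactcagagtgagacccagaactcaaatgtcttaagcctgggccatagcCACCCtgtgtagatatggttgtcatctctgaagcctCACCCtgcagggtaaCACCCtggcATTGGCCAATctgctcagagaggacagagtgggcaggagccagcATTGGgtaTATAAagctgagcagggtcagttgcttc
Alas2 (chrX:150547167-150547416, plus strand): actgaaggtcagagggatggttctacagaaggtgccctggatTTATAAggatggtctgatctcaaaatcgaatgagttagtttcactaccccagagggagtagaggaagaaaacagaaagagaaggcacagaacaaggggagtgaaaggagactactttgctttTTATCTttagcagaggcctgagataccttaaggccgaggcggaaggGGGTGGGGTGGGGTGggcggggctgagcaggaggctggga

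Of the 6 members, 5 matched the promoter table, and Slc4a1 did not. The Hba-a2 promoter (chr11:32296242-32296491) is the same as that of Hba-a1 when shifted by 3 bases, with 0 differences over 247 aligned bases. Counted back from the transcript start, a TATA box begins at -27 in Hba-a1, -29 in Hbb-bs and -28 in Hbb-bt. A CCAAT box on the coding strand begins at -88, -76 and -75 in these genes. Hba-a1 holds the GATA form TGATAA at -183 and Hbb-bs the form AGATAA at -210, while neither form is in the Hbb-bt window. In Hbb-bt, CCAAT boxes on opposite strands lie side by side. Alas2 holds AGATAA on the opposite strand at -86 and 3 CACC boxes in a row on that strand from -40 to -26, and its overlapping pair of TATA matches lies at -208 to -203. Among 32851 promoters of this length, 22.8% hold TATAA, 33.8% CCAAT, 52% CACCC, 9.99% AGATAA and 7.94% TGATAA on either strand. All 4 kinds together occur in 0.721% of these promoters and in 3 of the 5 members matched, Hba-a1, Hba-a2 and Hbb-bs. The windows of Hba-a1 and Hba-a2 are the same sequence, and the motifs were chosen after the sequences were seen. The share among members therefore cannot be weighed against that among all promoters. These matches are letters in a window, and binding was not measured.

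The libraries held 19130209 to 23029089 counted reads, so that 3 reads corresponded to 0.124 to 0.165 CPM (counts scaled to a common library size), a limit that covers counting error only. The control rOvaries were farther apart than the treated ones, with 20.7% and 2.19% of 17631 genes more than 2-fold apart within the group. Reads of 4 Y-linked genes (Ddx3y, Uty, Kdm5d and Eif2s3y) summed to 1021 in control rOvary 1, against 2, 0 and 0 in treated rOvaries 1 and 2 and control rOvary 3. The summed level of 8 Sertoli cell markers, the support cells of the testis, was 1438 CPM in control rOvary 1 and between 93.6 and 276.5 CPM in the other libraries. Control rOvary 1 thus held Y-linked transcripts, which goes against the description of all grafts as made with cells of fetal ovaries in female recipients, and the part of male cells in its values was not tested. In control rOvary 3 the oocyte genes Gdf9 and Zp3 were at 6.97 and 3.26 CPM, against 129 CPM or more for each in the other libraries. The 14 ovary markers, from granulosa cells, steroid synthesis and oocytes, were all tested and summed to between 3271 and 10190 CPM. Kidney markers summed to 51.9 and 131 CPM in the treated rOvaries and to 463 and 1111 CPM in controls. Fold changes of the members are therefore also given without control rOvary 1 and without control rOvary 3. Counts of calls are given in the same way for the lists other than the Y-linked genes and the globin genes outside the members.

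Over the 4 libraries, the mean level of all 4 adult globin genes was 2.29- to 3.17-fold higher with INK128 in the fitted comparison, and none passed the test. Alas2 had a lower mean with INK128, and Slc4a1 was lower in each treated rOvary than in each control by a wide margin. Of the 6 members, 0 were called by edgeR's quasi-likelihood test (adjusted p below 0.05 and fold change above 1.5), where 6.37% of the 11758 genes with a mean CPM above 10 and 0% of the 17631 genes with a mean CPM above 1 were called. At an unadjusted p below 0.05 there was 1 member, Slc4a1, against 36.4% and 32.9% of these genes. DESeq2 called 1 member, Slc4a1, against 28.6% and 23.8% of genes (13.6% lower at a mean CPM above 1), and limma voom called 0 members and 0% of genes in both sets. In 5 members the groups did not overlap, 3 higher and 2 lower. This was also so for 68% and 65.8% of all genes in these 2 sets (36.2% and 32.4% higher, 31.7% and 33.4% lower), so the count alone does not set the members apart. The median log2 fold change of the 6 members was 1.28, and that of all genes was -0.03 at a mean CPM above 10 and -0.04 at a mean CPM above 1.

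**Figure D1:**
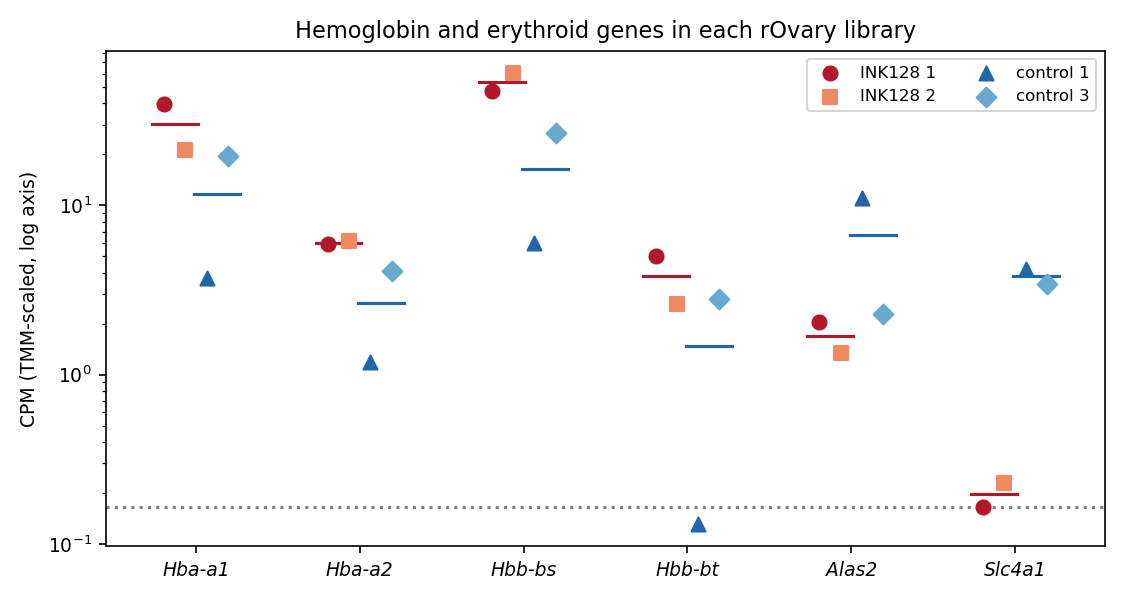
CPM of the 6 members in each rOvary on a log10 axis, with 1 point per library, a bar at the mean of each group (n = 2) and a dotted line at the highest level of 3 reads, 0.165 CPM. The globin points of control rOvary 1 lie lowest in each of the 4 globin genes, its Alas2 point (11.1 CPM) lies highest, and the Slc4a1 points of both treated rOvaries lie far below both controls.

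Hba-a1, the more abundant of the alpha globin genes by counted reads, was at 39.7 and 21.2 CPM in treated rOvaries 1 and 2 and at 3.74 and 19.5 CPM in control rOvaries 1 and 3. The groups did not overlap, but treated rOvary 2 and control rOvary 3 were close, with 459 reads in the former and 472 in the latter, which had the smaller read total. Their order therefore rested on the scaling between libraries. The means were 30.5 ± 13.1 CPM for the treated and 11.6 ± 11.1 CPM for the control rOvaries (SD, n = 2 each). The log2 fold change was 1.34 ± 0.838 (SE, adjusted p = 0.302), which did not pass the test.

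Hba-a2, which encodes an alpha chain with a coding sequence that differs from that of Hba-a1 at 1 base, was at 5.89 and 6.13 CPM with INK128 and at 1.19 and 4.09 CPM in controls. The treated rOvaries lay close together and above both controls. Its means were 6.01 ± 0.173 and 2.64 ± 2.05 CPM (SD, n = 2 each), with a log2 fold change of 1.19 ± 0.688 (SE, adjusted p = 0.282). Per kilobase of exon, Hba-a1 exceeded Hba-a2 in all 4 libraries, with 48.9, 26.1, 4.61 and 24.0 CPM per kb against 8.83, 9.20, 1.78 and 6.12 CPM per kb in the order treated 1, treated 2, control 1 and control 3. This order depends on how reads that match both copies were counted. Of the 100-base stretches, 74.5% of those of Hba-a2 but 56.5% of those of Hba-a1 are shared. With the pair summed, the alpha globin log2 fold change was 1.30 ± 0.784 (SE, adjusted p = 0.286).

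Hbb-bs, the major adult beta globin gene here, was at 47.2 and 60.3 CPM with INK128 and at 5.99 and 26.9 CPM in controls. Both treated rOvaries lay above both controls. The means were 53.8 ± 9.26 CPM (SD, n = 2) and 16.4 ± 14.8 CPM (SD, n = 2). The fitted log2 fold change was 1.67 ± 0.736 (SE), at an adjusted p of 0.178. Per kilobase of exon it reached 61.5 and 78.6 CPM per kb with INK128 and 7.79 and 35 CPM per kb in controls, the highest of the 6 members in each library. Without control rOvary 1 the log2 fold change was 0.95 and without control rOvary 3 it was 3.14, and Hbb-bs was called in both cases, with an edgeR adjusted p of 0.00473 and 5.12e-06, against 0.05 to 0.544 under the other settings tried. In each of these fits the lone control was assumed to vary like the treated rOvaries.

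Hbb-bt, the minor adult beta globin gene, was at 5.01 and 2.63 CPM with INK128 and at 0.132 and 2.81 CPM in controls. The value in control rOvary 1 stood for 3 reads, at the limit of this depth, and control rOvary 3 lay above treated rOvary 2. Hbb-bt was thus the 1 member whose groups overlapped. The means were 3.82 ± 1.68 and 1.47 ± 1.89 CPM (SD, n = 2 each), and the log2 fold change was 1.37 ± 1.30 (SE, adjusted p = 0.490). With the pair summed, the beta globin log2 fold change was 1.64 ± 0.761 (SE, adjusted p = 0.193).

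Added over the 4 adult genes, globin reads were 97.9 and 90.3 CPM in the treated rOvaries and 11.1 and 53.2 CPM in controls, with 251 to 1957 reads per library. The treated rOvaries were near each other, whereas the controls were 4.82-fold apart. Treated rOvaries 1 and 2 exceeded control rOvary 1 by 8.86- and 8.17-fold and control rOvary 3 by 1.84- and 1.70-fold. The size of the difference therefore depended on which control was used. The means were 94.1 ± 5.38 and 32.1 ± 29.8 CPM (SD, n = 2 each), and the exact two-sided permutation test gave p = 0.333, the smallest p that 2 against 2 libraries allow (0.889 after adjustment over 4 quantities). Globins took between 0.00116% and 0.00929% of all reads.

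**Figure D2:**
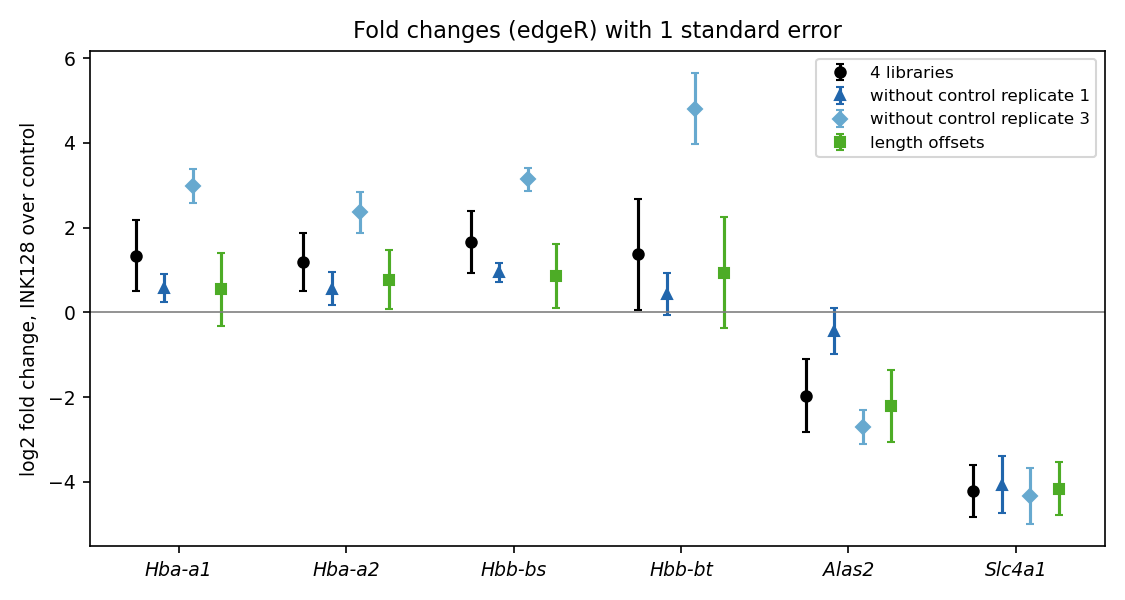
Log2 fold change (INK128 against control, edgeR) of each member, with bars of 1 standard error, from all 4 libraries, without control rOvary 1, without control rOvary 3 and with offsets for exon length. The globin genes lie above 0 and Alas2 and Slc4a1 below 0 in all 4 fits, and leaving out control rOvary 3 moves the globin values up the most.

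Without control rOvary 3, all 6 members were called, the 4 globin genes higher at log2 fold changes of 2.36 to 4.81 and Alas2 and Slc4a1 lower, in a fit that called 42.6% of genes with a mean CPM above 10 and 40.9% of those above 1. Without control rOvary 1, only Hbb-bs and Slc4a1 were called, and the other globin genes had log2 fold changes of 0.43 to 0.59, where 45.8% and 45% of all genes in these sets were called. With offsets that removed the relation between exon length and expression in each library, the globin values were 0.55 for Hba-a1, 0.78 for Hba-a2, 0.86 for Hbb-bs and 0.94 for Hbb-bt, none called. With limma voom they were higher than in edgeR, at 1.66, 1.43, 2 and 2.41 in the same order, none called. The globin transcripts are short, at 667 to 812 bases of exon, against 2403 for Alas2 and 4891 for Slc4a1. No fit among those tried turned the direction of any member.

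Whether the globin chains kept a fixed proportion was read from shares of counted reads, with Wilson 95% intervals that cover counting error only. Alpha globin made up 46.6% of globin reads in treated rOvary 1 (44.3 to 48.9), 44.6% in control rOvary 1 (38.6 to 50.8) and 44.3% in control rOvary 3 (41.6 to 47.0). In treated rOvary 2 it was 30.3% (28.3 to 32.3), below the other 3 libraries beyond counting error. The ratio of alpha to beta reads was 0.874 and 0.434 in treated rOvaries and 0.806 and 0.794 in controls, with a difference in means of -0.146 (exact two-sided permutation p = 1). Without treated rOvary 2 the difference was 0.0736, so its direction rested on that library.

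Within the alpha pair, Hba-a2 took 12.9% of reads in treated rOvary 1 (10.8 to 15.4), 22.5% in treated rOvary 2 (19.3 to 26), 24.1% in control rOvary 1 (17.1 to 32.8) and 17.3% in control rOvary 3 (14.5 to 20.7). Within the beta pair, Hbb-bt took 9.59% (7.88 to 11.6), 4.18% (3.24 to 5.37), 2.16% (0.737 to 6.15) and 9.46% (7.53 to 11.8) in the same order. The libraries in which Hba-a2 took more, treated rOvary 2 and control rOvary 1, were those in which Hbb-bt took less. Neither share separated the groups, with exact two-sided permutation p = 0.667 for each (0.889 after adjustment over 4 quantities).

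**Figure D3:**
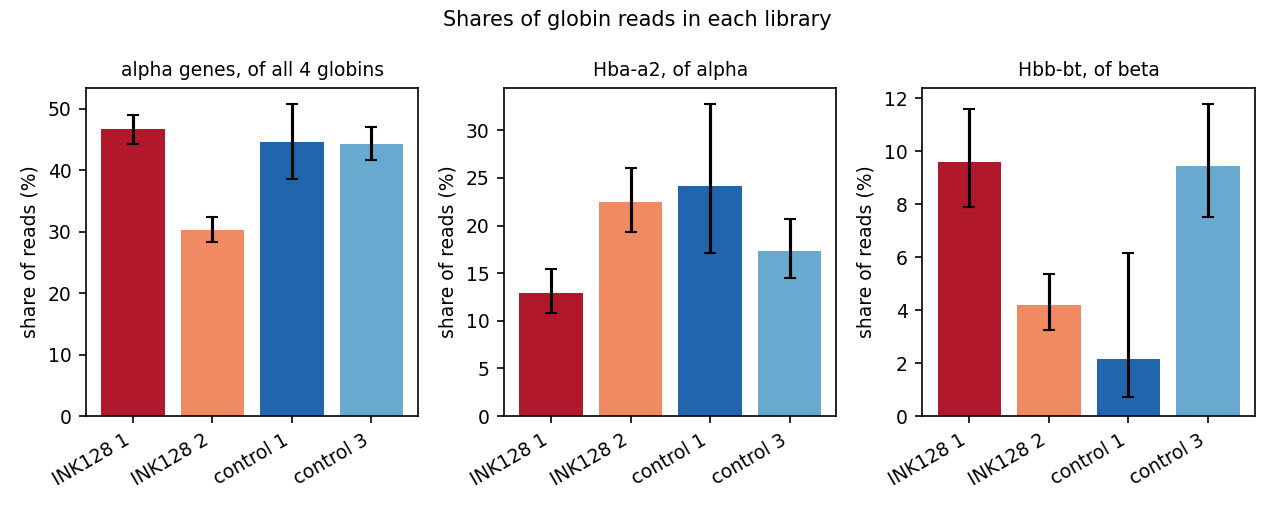
Shares of globin reads in each rOvary, in percent, with Wilson 95% intervals as bars: alpha globin among all globin reads, Hba-a2 among alpha reads and Hbb-bt among beta reads. The alpha share of treated rOvary 2 (30.3%) stands below the other 3, while in the Hba-a2 and Hbb-bt shares the libraries of the groups alternate in order.

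Alas2 went the other way from the globin genes. It was at 2.04 and 1.34 CPM (37 and 29 reads) in the treated rOvaries and at 11.1 and 2.27 CPM (252 and 55 reads) in controls. Control rOvary 1 alone was high, and control rOvary 3 was close to treated rOvary 1. The means were 1.69 ± 0.494 and 6.68 ± 6.24 CPM (SD, n = 2 each), with a log2 fold change of -1.97 ± 0.86 (SE, adjusted p = 0.187). Without control rOvary 1 it was -0.44 (edgeR adjusted p = 0.533), and without control rOvary 3 it was -2.70, which was called. The exons of Alas2 share 311 bases with Apex2 on the opposite strand, and the strand setting of the counting is not given in the sources used here. Apex2 itself was at 12.2 and 13.5 CPM with INK128 and 15.5 and 10.2 CPM in controls, and its log2 fold change was -0.04.

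The library with the highest Alas2 had the lowest globin level. Control rOvary 1 exceeded treated rOvaries 1 and 2 and control rOvary 3 in Alas2 by 5.44-, 8.29- and 4.89-fold. Gata1, which encodes the transcription factor that drives both red cell and Sertoli cell genes, followed the same libraries with 2.75 and 2.08 CPM with INK128 and 43.4 and 3.01 CPM in controls. Tfr2, the transferrin receptor gene of liver and red cell precursors, was at 0.440 and 0.277 CPM against 5.77 and 0.330 CPM. Without control rOvary 1 the log2 fold change was -0.38 for Gata1 and 0.10 for Tfr2, against -4.20 and -3.98 without control rOvary 3. Amh was counted both among the 8 Sertoli cell markers and among the 14 ovary markers. Its log2 fold change without control rOvary 1 was 4.37, against 2.24 for Aard and 0.68 for Dhh. Of the 8 Sertoli cell markers, 0 were called by edgeR and 1, Cst9, lower by DESeq2, with 2 higher and 6 lower in fitted level. Without control rOvary 1 this turned to 7 higher and 1 lower, with 3 called higher, and without control rOvary 3 it was 2 higher and 6 lower, with 1 called higher and 6 lower. Sox9 was at 147 CPM and Dmrt1 at 30.3 CPM in control rOvary 1 against at most 6.23 and 0.138 CPM elsewhere. The part of these cells in the Alas2 difference was not tested.

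Slc4a1 had the largest difference of the members in the fit of all 4 libraries, though Hbb-bt exceeded it without control rOvary 3 (4.81 against -4.33 on the log2 scale). It was at 0.165 and 0.231 CPM in the treated rOvaries, from 3 and 5 reads, and at 4.23 and 3.43 CPM in controls, from 96 and 83 reads. Each treated rOvary was near the limit of this depth, while the controls were alike. The means were 0.198 ± 0.0463 and 3.83 ± 0.566 CPM (SD, n = 2 each). Scaled by library size with TMM factors, the controls held 19 times the pooled reads of the treated rOvaries (8 against 179 reads), with a counting interval of 9.43 to 44.7. The edgeR log2 fold change was -4.21 ± 0.622 (SE), with an adjusted p of 0.0555. This was the smallest value in that fit, but it was not reached by Slc4a1 alone. Dmtn shared it, and its unadjusted edgeR p of 0.00047 was smaller than the 0.00131 of Slc4a1. DESeq2 called it, with a log2 fold change of -4.25 and an adjusted p of 0.000164, against 0.000103 to 0.472 over the alternatives tried.

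Markers of kidney intercalated cells, a list chosen after values were seen, were read beside Slc4a1. All 8 had a lower fitted level with INK128, and 0 were called by edgeR and 7 lower by DESeq2. DESeq2 called 13.6% of genes at a mean CPM above 1 lower. In 7 the groups did not overlap, where 33.4% of genes at a mean CPM above 1 were lower without overlap. Because the list was chosen after values were seen, these counts cannot serve as a test against all genes. Without control rOvary 1 edgeR called 8 lower, and without control rOvary 3 it called 7 lower and 1, Slc26a7, higher. Their summed level was 165 and 193 CPM with INK128 and 170 and 359 CPM in controls, most of it from Slc26a7, whose groups overlapped (log2 fold change -0.36, adjusted p = 0.648). The more restricted markers were Foxi1 at 0.165 and 0.277 CPM against 5.19 and 2.27 CPM, Atp6v1g3 at 0.165 and 0.692 CPM against 5.81 and 3.05 CPM, and Slc26a4 at 0.0550 and 0.600 CPM against 14.3 and 8.91 CPM. Lrp2 and Cubn, the receptors by which the proximal tubule takes up filtered protein, fell by 4.37 and 4.35 on the log2 scale (adjusted p = 0.0464 for each), and the proximal tubule transporter genes Slc34a1 and Slc22a6 fell too, with log2 fold changes of -4.67 and -4.11 (adjusted p = 0.0475 and 0.0486). Kap, a kidney androgen-regulated gene, was at 7.16 and 59.8 CPM against 78.6 and 285 CPM and was not called (adjusted p = 0.2). Of the 12 kidney markers, 4 were called by edgeR and 8 by DESeq2, all lower, with edgeR calling 9 lower without control rOvary 1 and 7 lower and 1 higher without control rOvary 3. Their part in the Slc4a1 difference was not tested.

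**Figure D4:**
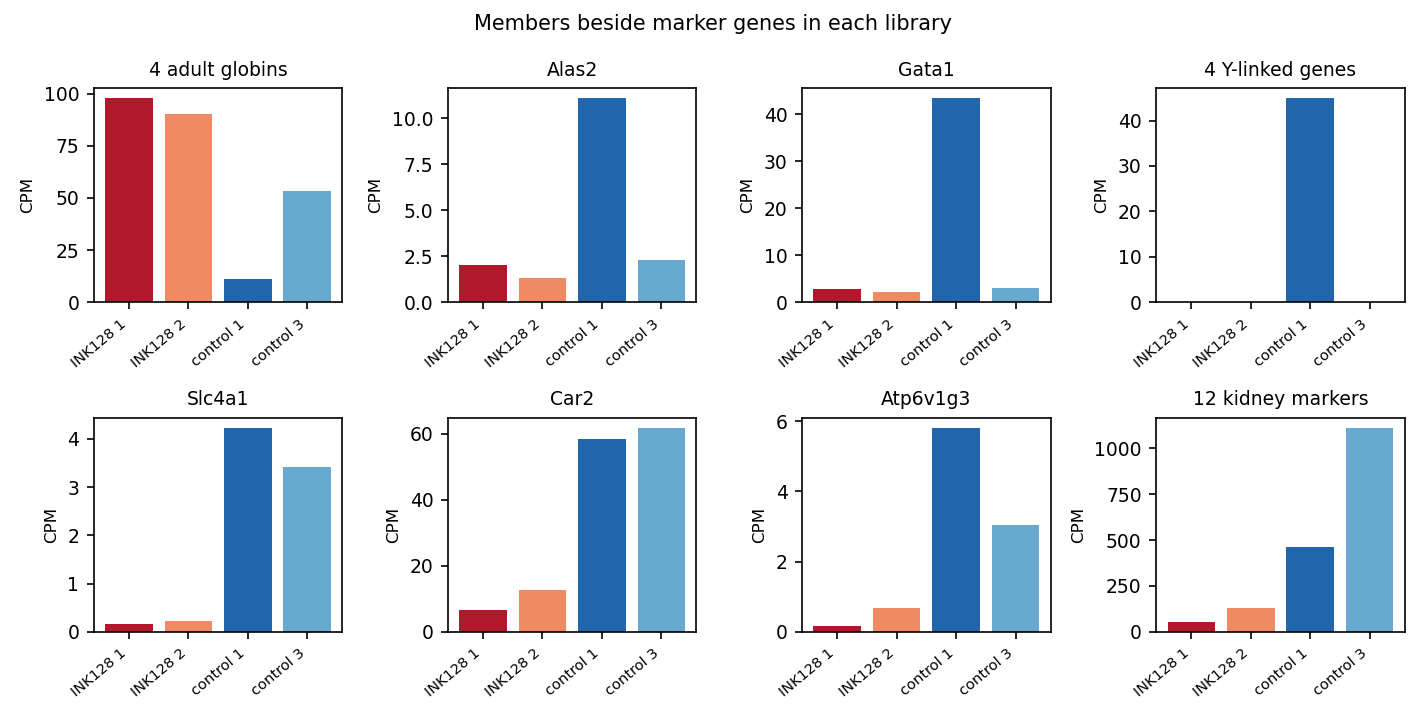
Summed or single-gene CPM in each rOvary, with bars from 0, for the 4 adult globins, Alas2, Gata1, the Y-linked genes, Slc4a1, Car2, Atp6v1g3 and the kidney markers. Alas2, Gata1 and the Y-linked reads are high in control rOvary 1 alone, and Slc4a1, Car2, Atp6v1g3 and the kidney markers are higher in both controls.

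Red cell precursors are further defined by genes of the membrane, of maturation and of their transcription program, and the levels of these genes were uneven. Rhag and Trim58 had 0 reads in all 4 libraries. Car1, a red cell carbonic anhydrase, had 2, 0, 0 and 7 reads and Hemgn 0, 0, 0 and 1 in the order treated 1, treated 2, control 1 and control 3. Klf1, the transcription factor that activates the adult beta globin gene, had 16, 12, 6 and 7 reads. Of the other genes of the globin clusters, among them the embryonic globin genes, Hba-x, Hbq1b, Hbb-bh0, Hbb-bh1, Hbb-bh2 and Hbb-bh3 had 0 reads throughout, Hbb-y had 3, 0, 0 and 3 and Hbq1a had 1, 3, 0 and 0. Other genes of the same lists had more reads, with 168, 111, 82 and 8 reads of Rhd, a blood group gene, 71, 63, 16 and 43 reads of Icam4, an adhesion molecule gene of red cells, and 28, 14, 11 and 3 reads of Epb42, a band 3 binding protein gene. Rhd, Icam4 and Epb42 were higher in both treated rOvaries than in both controls. On the same list, Sptb (116, 115, 378 and 311 reads) and Dmtn (24, 27, 267 and 435 reads) were lower in both. Fitted levels on it were higher for 6 and lower for 8 of the 14 tested genes. The genes named here were chosen after their values were seen.

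Of 20 genes of the red cell membrane and skeleton, 14 were tested and 0 were called by edgeR, with 6 higher and 8 lower and a median log2 fold change of -0.20. DESeq2 called 4 of them, all lower, and edgeR called 3 higher and 5 lower without control rOvary 1 and 3 higher and 4 lower without control rOvary 3. Dmtn, which bundles actin under the membrane, was at 1.32 and 1.25 CPM with INK128 and at 11.8 and 18.0 CPM in controls, a log2 fold change of -3.52 at an adjusted p of 0.0555. Epb41, which strengthens the membrane skeleton, had a log2 fold change of -0.78 at an adjusted p of 0.0843. The water channel Aqp1, made by red cells, vessels and kidney tubules, was at 31.7 and 24.4 CPM against 45.3 and 136 CPM (adjusted p = 0.107), and Tmod1, which caps actin filaments, had a log2 fold change of 0.14. Aqp1 stood highest in control rOvary 3, which also had the highest summed levels of kidney and blood endothelium markers (1111 and 800 CPM). The part of these cells in the Aqp1 values was not tested.

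Of 16 genes of the red cell cytosol and maturation, 9 were tested and 1, Car2, was called by edgeR, with DESeq2 calling Car2 lower and Prdx2 higher. Car2 encodes a carbonic anhydrase that is abundant in red cells and in kidney intercalated cells. It fell from 60.1 ± 2.32 CPM in controls to 9.54 ± 4.31 CPM with INK128 (SD, n = 2 each), a log2 fold change of -2.69 ± 0.389 (SE, adjusted p = 0.0464). The antioxidant enzyme gene Prdx2, the most abundant of this list, had a log2 fold change of 0.62 at an adjusted p of 0.0805, Bnip3l, which clears mitochondria from reticulocytes, of -0.19, and Mkrn1 of -0.82. The median of the tested genes was -0.33. Leaving out control rOvary 1 gave 2 calls in each direction, and without control rOvary 3 there were 4 lower.

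Of 12 genes of erythroid transcription and signaling, 9 were tested and 0 were called by edgeR, with 2 higher, 7 lower and a median log2 fold change of -0.58, while DESeq2 called Ldb1 higher and Gata1 lower (adjusted p = 0.017 and 0.0132). Gata1 had a log2 fold change of -3.30 ± 1.28 (SE, adjusted p = 0.143), from the single high control described above. Its partner Zfpm1 was at 12.5 and 20.1 CPM with INK128 and at 60.5 and 19.1 CPM in controls, so control rOvary 1 was again the high one, and its log2 fold change was -0.27 without that library and -1.91 without control rOvary 3. Ldb1, which bridges enhancers and promoters at the globin loci, had a log2 fold change of 0.68 at an adjusted p of 0.0773. Stat5b and Jak2, which relay the erythropoietin signal, were at -0.52 and -0.81, and the erythropoietin receptor gene Epor at 1.29 from 35, 57, 23 and 21 reads (adjusted p = 0.189). With control rOvary 1 left out, edgeR called 1 gene higher and 4 lower, and without control rOvary 3 it called 1 higher and 3 lower.

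Heme synthesis and transport genes showed no common direction. All 17 were tested, with 9 higher, 8 lower, 0 called by edgeR and a median log2 fold change of 0.07, and DESeq2 called 3 higher and 1 lower. Alas1, the counterpart of Alas2 outside the red cell, was at 139 and 124 CPM with INK128 and at 119 and 127 CPM in controls, which left its log2 fold change at 0.05 (adjusted p = 0.827). The groups of Ppox, which encodes the enzyme before ferrochelatase, did not overlap, at 61.9 and 68.8 CPM against 34.5 and 29.1 CPM (adjusted p = 0.0516). Fech, the ferrochelatase gene, was at 69.5 and 66.0 CPM against 73.2 and 82.2 CPM (adjusted p = 0.351). The mitochondrial carriers Slc25a39 and Tmem14c had log2 fold changes of 0.20 and 0.85. When control rOvary 1 was left out, edgeR called 4 genes higher and 3 lower, and without control rOvary 3 it called 4 higher and 2 lower.

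Among 13 genes of iron uptake and storage, 12 were tested and 1, Ncoa4, was called by edgeR and 3 by DESeq2, all lower, with 3 higher, 9 lower and a median log2 fold change of -0.62. Ncoa4 encodes the receptor that delivers ferritin for breakdown. It fell from 82.1 ± 2.90 CPM to 29.9 ± 2.52 CPM (SD, n = 2 each), a log2 fold change of -1.5 ± 0.172 (SE, adjusted p = 0.0464). The ferritin genes Ftl1 and Fth1 had log2 fold changes of 0.47 and 0.25, and Aco1, the iron-regulated RNA-binding protein, of -0.63, none called. In this list, leaving out control rOvary 1 gave 4 calls, all lower, and without control rOvary 3 there were 1 higher and 4 lower. Of 8 genes of heme and hemoglobin clearance, 7 were tested, with 6 higher, 1 lower and a median of 0.51. Blvrb, which encodes biliverdin reductase B, rose from 23.2 ± 1.80 to 69.3 ± 3.39 CPM (SD, n = 2 each), a log2 fold change of 1.54 ± 0.186 (SE, adjusted p = 0.0464), and was the 1 gene called. The heme oxygenase genes Hmox1 and Hmox2 had log2 fold changes of 0.53 and 0.45 (adjusted p = 0.219 and 0.122), and Lrp1, a receptor for heme bound to hemopexin, of 0.21. The call count in this list was 1 without control rOvary 1, and without control rOvary 3 it was 2, all higher.

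**Figure D5:**
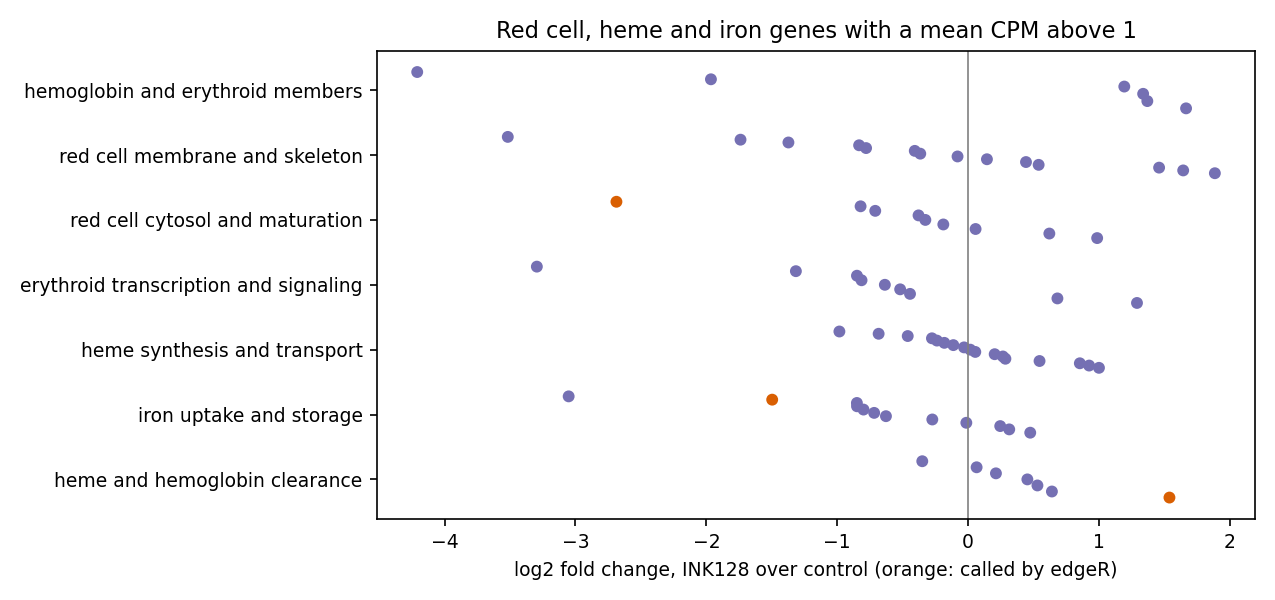
Log2 fold change (INK128 against control, edgeR) of the 6 members and of each tested gene in 6 lists of globin, red cell, heme and iron genes, with 1 point per gene and called genes in orange. The called points are Car2, Ncoa4 and Blvrb, and the heme synthesis points spread on both sides of 0.

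These 3 calls in the lists were lost when either treated rOvary was left out, where edgeR called 0 genes in the whole table, with 1525 and 1338 genes at an unadjusted p below 0.05. The other globin genes of the list that reached the test were Cygb, cytoglobin of fibroblast-like cells, and Ngb, neuroglobin. Cygb was at 265 and 244 CPM with INK128 and at 145 and 189 CPM in controls, a log2 fold change of 0.57 at an edgeR adjusted p of 0.134. This fold change was 0.38 without control rOvary 1 and 0.78 without control rOvary 3. Ngb was at 1.43 and 1.43 CPM against 5.50 and 0.784 CPM, with its groups overlapping. Its log2 fold change turned from -1.11 to 0.86 without control rOvary 1 and was -1.91 without control rOvary 3. Myoglobin (Mb) had 10, 10, 14 and 43 reads.

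The globin genes lay near one another in their levels across the 4 libraries, and Alas2 and Slc4a1 lay apart from them. This was read as the root mean square distance between log2 profiles centred on their own mean, a description over 4 points that share their libraries. The 4 globin genes were within 0.0998 to 0.493 of one another, with Hba-a1 and Hbb-bt the nearest pair. Alas2 and Slc4a1 were 0.911 apart, farther than any pair of globin genes, and each was 1.81 to 2.47 from every globin gene. In control rOvary 3 the centred log2 level was -0.337 for Alas2 and 1.18 for Slc4a1. Outside all lists, the 5 genes with a mean CPM above 10 nearest to the median profile of Hba-a1 and Hbb-bs were Srpx2 (0.0699), Hhip (0.159), Atp5k (0.194), Syt1 (0.198) and Kcnk2 (0.201). Srpx2 was at 65.9 and 62.1 CPM with INK128 and at 8.23 and 38.7 CPM in controls, with control rOvary 1 the lowest, as in the globin genes.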

How the data were processed

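The 4 libraries, 2 per group and each called an rOvary here, were made from polyA RNA with the NEBNext Ultra kit. According to the study's methods and the submitters' processing notes, reads were trimmed with Trimmomatic, aligned to mm10 with HISAT2 and counted per gene with featureCounts. The versions, the strand setting and the handling of reads with several matches are not given in the sources used here. The table deposited by the authors holds raw counts by gene symbol, neither normalized nor pooled.

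CPM were computed from the counts with TMM factors over all genes. Tests used edgeR 4.0.16 (quasi-likelihood F-test, R 4.3.3) with Benjamini-Hochberg adjustment and TMM factors of the tested genes. Hba-a1 and Hbb-bs were read from the 11758 genes with a mean CPM above 10, and the other members from the 17631 genes with a mean CPM above 1. Calls needed a fold change above 1.5 with an adjusted p below 0.05. Standard errors were the log2 fold change divided by the square root of F. DESeq2 1.42.0, limma 3.58.1, other scalings, filters and thresholds, length offsets and leaving out each library were alternatives. The tests were tested on simulated data. Of the symbols, 53447 matched GENCODE M21. In the lists, genes named were those called plus the 3 of highest mean CPM; others named were chosen after their values were seen. Hbb-b1, Hbb-b2 and Ahsp were not analysed here. The members and lists were chosen with earlier results of these data known, and the Sertoli cell and intercalated cell lists and the motifs after the values or sequences were seen.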

Additional observations from a re-analysis of the deposited data

How the results depend on the processing

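All 80 recomputed log2 fold changes of the 6 members kept their direction, 70 of them also their side of the threshold, and 10 became called, 8 of these by leaving out a control. Members called numbered 0 as reported, and 1, Slc4a1, with DESeq2, with all genes of at least 1 count and at an adjusted p below 0.1, and ranged from 0 to 6 when 1 library was left out. Slc4a1 had a log2 fold change of -4.25 with DESeq2 and -4.22 with all genes of at least 1 count. With 1 library left out, the log2 fold changes ranged from 0.59 to 2.99 for Hba-a1, 0.56 to 2.36 for Hba-a2, 0.95 to 3.14 for Hbb-bs, 0.43 to 4.81 for Hbb-bt, -2.70 to -0.44 for Alas2 and -4.50 to -4.01 for Slc4a1. The 749 genes called overall (374 higher, 375 lower) became 3367 with DESeq2, 3105 with at least 1 count, 1562 and 1520 with CPM above 10 in at least 2 or in all 4 libraries, and 3131 at an adjusted p below 0.1. They became 0 with limma voom, with a mean CPM above 1 and with length offsets, where 3979, 5797 and 3133 genes had an unadjusted p below 0.05. With 1 library left out the count ranged from 0 to 5387. Upper quartile factors gave 567 higher and 396 lower, and library totals alone 293 and 627, moving the median log2 fold change to -0.16. The cause was not tested. No member passed a CPM above 10 in all 4 libraries. No paired analysis was possible because the groups share only replicate number 1. Depth limits Slc4a1 with INK128 and Hbb-bt in control rOvary 1, at 3 to 5 reads each.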

Other observations

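Other blood and vessel genes were read beside the members. Of 9 platelet and megakaryocyte genes, 4 were tested, all with a higher fitted level with INK128 with 0 called by edgeR and 1, Gp1bb, by DESeq2, and a median log2 fold change of 0.70. Their summed level was 129 and 116 CPM in the treated rOvaries and 53.1 and 102 CPM in controls, most of it from Itgb3, an integrin subunit shared with other cells. Leaving out control rOvary 1 left 3 higher and 1 lower, with 2 called higher, and without control rOvary 3 all 4 were higher, with 2 called. Gp1bb, a platelet adhesion receptor subunit, was at 14.5 and 13.5 CPM against 5.33 and 5.78 CPM (adjusted p = 0.0665), Pf4, a platelet chemokine, at 19.7 and 14.7 CPM against 14.4 and 5.98 CPM, and Itgb3 at 88.7 and 80.9 CPM against 28.3 and 87.4 CPM. Pf4 was thus lowest in control rOvary 3 and Itgb3 in control rOvary 1.

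Of 11 leukocyte genes, 8 were tested, with 1 higher, 7 lower, 0 called by edgeR and 5 lower by DESeq2, and a median log2 fold change of -0.96. By edgeR, 5 were called lower without control rOvary 1 and 3 without control rOvary 3. The macrophage genes Lyz2 and Csf1r were at 110 and 113 CPM against 170 and 270 CPM and at 59.8 and 42 CPM against 95.3 and 103 CPM (adjusted p = 0.0802 and 0.0599), and Ptprc, common to leukocytes, at 8.04 and 6.92 CPM against 9.37 and 45.8 CPM. Of 10 blood endothelium genes, 4 were higher and 6 lower, and 1 was called, against 4 lower without control rOvary 1 and 4 higher and 1 lower without control rOvary 3. Kdr, the main receptor for vascular endothelial growth factor, fell from 152 ± 18.5 to 53.9 ± 4.95 CPM (SD, n = 2 each), a log2 fold change of -1.54 at an adjusted p of 0.0464, while Cdh5 and Pecam1, also endothelial, had log2 fold changes of -0.31 and -0.36 with overlapping groups. Of 14 ovary genes, 10 were higher and 4 lower, with 0 called by edgeR, 1 higher and 1 lower by DESeq2 and a median of 1.05. By edgeR the counts were 8 higher and 3 lower without control rOvary 1 and 7 higher and 1 lower without control rOvary 3. Inha, the inhibin alpha subunit gene of granulosa cells, was at 4170 and 5908 CPM with INK128 and at 1670 and 2796 CPM in controls (adjusted p = 0.0993). Inhba, an activin and inhibin subunit gene, and Cyp11a1, which starts steroid synthesis, were lowest in control rOvary 1 and highest in control rOvary 3, at 175 and 2043 CPM and at 70.2 and 3945 CPM. Of 12 kidney genes, 1 was higher and 11 lower in fitted level.

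Ackr1, a chemokine receptor of red cells and venules, was at 8.26 and 10.7 CPM with INK128 and at 0.660 and 5.41 CPM in controls, with control rOvary 1 again the lowest (log2 fold change 1.64, adjusted p = 0.296).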
